A study of Homo sapiens with 12 samples.

Results

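ANKRD1 and 7 further genes of the YAP/TEAD branch of the Hippo pathway were followed through 12 RNA sequencing libraries of U251-APP, an astrocytic glioblastoma cell line from human tissue with stable expression of the amyloid precursor protein APP in its K670N/M671L mutant form. The 8 genes (ANKRD1, CCN1, CCN2, AMOTL2, LATS2, YAP1, WWTR1 and TEAD1) were found by symbol among the 11178 genes listed, and all 8 were among the 11128 genes kept for testing. The set was chosen by the measured level of ANKRD1, which was much lower in both knockouts, so its contrasts with wild type are given as a description, with no test. The other 7 belong to the set by their place in the pathway, but members and lists were chosen with earlier results of these data known.

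There were 4 libraries of wild-type cells (WT), 4 of cells lacking the CTCF-binding site called CTCF-A (CTCF-A KO) and 4 of cells lacking the site called CTCF-B (CTCF-B KO). CTCF is an insulator protein that shapes chromatin loops. All 3 groups share the APP transgene and the same culture medium. The labels list Cas9 editing as the treatment of every sample, wild type included. Per the labels' protocols each site was removed with Cas9 and a pair of guide RNAs, and single-cell clones were grown from puromycin-resistant, fluorescent cells. The labels do not give the position of either site, the number of clones per group or any cloning of the wild type. A difference between a knockout and wild type and a difference between clones cannot be told apart here. It is not stated whether the 4 libraries of a group are separate cultures, so the p-values speak only to the scatter of these libraries, and that scatter may be technical. In bulk RNA, fewer expressing cells and less RNA per cell cannot be told apart.

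YAP (gene YAP1) and TAZ (gene WWTR1) are transcriptional co-activators that do not bind DNA themselves. They are recruited to chromatin by the TEAD factors, of which TEAD1 is one member, and the kinases LATS1 and LATS2 keep them in the cytoplasm by phosphorylation when the Hippo pathway is active. CCN1 (CYR61) and CCN2 (CTGF) are secreted matricellular proteins and, with ANKRD1, a nuclear and sarcomeric ankyrin repeat protein, are the most used reporters of YAP/TEAD activity. AMOTL2, an angiomotin family scaffold that retains YAP in the cytoplasm, and LATS2 are themselves YAP/TEAD targets and act as negative feedback. In glioblastoma cells YAP and TAZ are known for their link to growth and a mesenchymal state.

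The stretches before the start sites of the members are shown first because 4 of 8 such stretches hold the sequence that TEAD factors recognise. The motif searched was GGAATG on either strand, which is not palindromic. RefSeq promoters of build GRCh38.p14 were matched by symbol for 6 of the 8 members (all but CCN1 and TEAD1), giving 8 start sites, and the 250 bases before each start were read. In the 4 sequences below, written 5′ to 3′ on the gene's strand, capitals mark the motif or its reverse complement.
ANKRD1, chr10:90921088-90921337, minus strand: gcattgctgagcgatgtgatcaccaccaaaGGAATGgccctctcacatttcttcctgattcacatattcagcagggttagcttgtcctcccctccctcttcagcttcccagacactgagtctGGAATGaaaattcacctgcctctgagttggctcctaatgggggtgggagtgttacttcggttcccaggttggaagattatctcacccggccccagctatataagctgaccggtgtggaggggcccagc
CCN2, chr6:131951373-131951622, minus strand: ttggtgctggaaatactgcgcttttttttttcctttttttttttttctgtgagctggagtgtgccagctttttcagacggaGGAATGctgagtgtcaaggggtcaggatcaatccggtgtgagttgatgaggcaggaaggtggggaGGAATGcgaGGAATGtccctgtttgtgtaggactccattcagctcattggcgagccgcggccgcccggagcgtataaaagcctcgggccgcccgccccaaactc
AMOTL2, 1 of 2 starts, chr3:134374448-134374697, minus strand: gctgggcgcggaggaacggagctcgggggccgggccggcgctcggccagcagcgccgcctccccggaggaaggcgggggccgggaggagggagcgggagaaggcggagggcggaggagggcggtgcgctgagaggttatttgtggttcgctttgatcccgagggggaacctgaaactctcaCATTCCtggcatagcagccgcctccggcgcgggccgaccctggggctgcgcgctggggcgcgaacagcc
YAP1, chr11:102110197-102110446, plus strand: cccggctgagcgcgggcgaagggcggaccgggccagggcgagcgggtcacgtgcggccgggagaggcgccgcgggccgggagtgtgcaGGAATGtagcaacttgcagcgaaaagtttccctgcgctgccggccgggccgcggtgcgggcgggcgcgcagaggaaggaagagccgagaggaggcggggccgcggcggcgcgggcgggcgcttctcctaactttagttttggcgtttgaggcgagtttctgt

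ANKRD1 held 2 matches, from 220 to 215 and from 128 to 123 bases before its start. CCN2 held 3 matches, at 169 to 164, 104 to 99 and 95 to 90 bases before the start, the last pair separated by 3 bases. AMOTL2 held 1 match, at 69 to 64 bases on the opposite strand, before 1 of its 2 starts. YAP1 held 1 match at 162 to 157 bases. No match lay in the windows of LATS2, of the 2 starts of WWTR1 or of the other AMOTL2 start. Over all 35116 promoters of the same length, 4175 (11.9%) held the motif. Of the 18 promoters matched to a wider list of core YAP/TAZ/TEAD targets, which includes 5 of the members' promoters, 8 (44.4%) held it. The AP-1-like pattern TGANTCA, in which N is any base, was searched on both strands and overlapped no TEAD match. It was found once among the 8 members' promoters, against 6.57% of all promoters. That match, in ANKRD1 at 195 to 189 bases before the start, read TGATTCA. A match is a description of letters and not evidence of binding.

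ANKRD1 (chr10:90912096-90921276, GRCh38, minus strand) stood far below wild type in every knockout library. In wild type its normalized log2 level was 8.26, 8.12, 8.23 and 8.19 in replicates 1 to 4. In CTCF-A KO it was 5.82, 6.24, 6.12 and 5.85, and in CTCF-B KO 5.60, 5.74, 5.67 and 5.47. The 3 groups did not overlap, and the spread within each was small beside the gap to wild type. The CTCF-A KO mean differed from the wild-type mean by -2.19 log2 units (SE 0.10, n = 4 libraries per group), which is 4.57-fold lower. The CTCF-B KO mean was lower than wild type by 6.0-fold, a log2 difference of -2.58 (SE 0.10). Ranked from the most negative difference, ANKRD1 stood at place 5 of 11128 genes in CTCF-A KO. In CTCF-B KO it stood at place 6. By comparison, 1.29% of all genes were at least 2-fold lower in CTCF-A KO, against 1.05% in CTCF-B KO. The contrast between the knockouts was not itself the rule of choice. It uses the same knockout values, so its p-value is not independent of that choice. ANKRD1 was 0.39 log2 units higher in CTCF-A KO than in CTCF-B KO (SE 0.10, limma, adjusted p = 0.00331), where 66.0% of all genes passed the same test. When replicate 4 alone stood for CTCF-A KO that difference was 0.23, with an adjusted p of 0.103. Such a fit takes its spread from the wild-type and CTCF-B KO libraries and assumes that the lone library varies as they do, here and below.

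**Figure D1:**
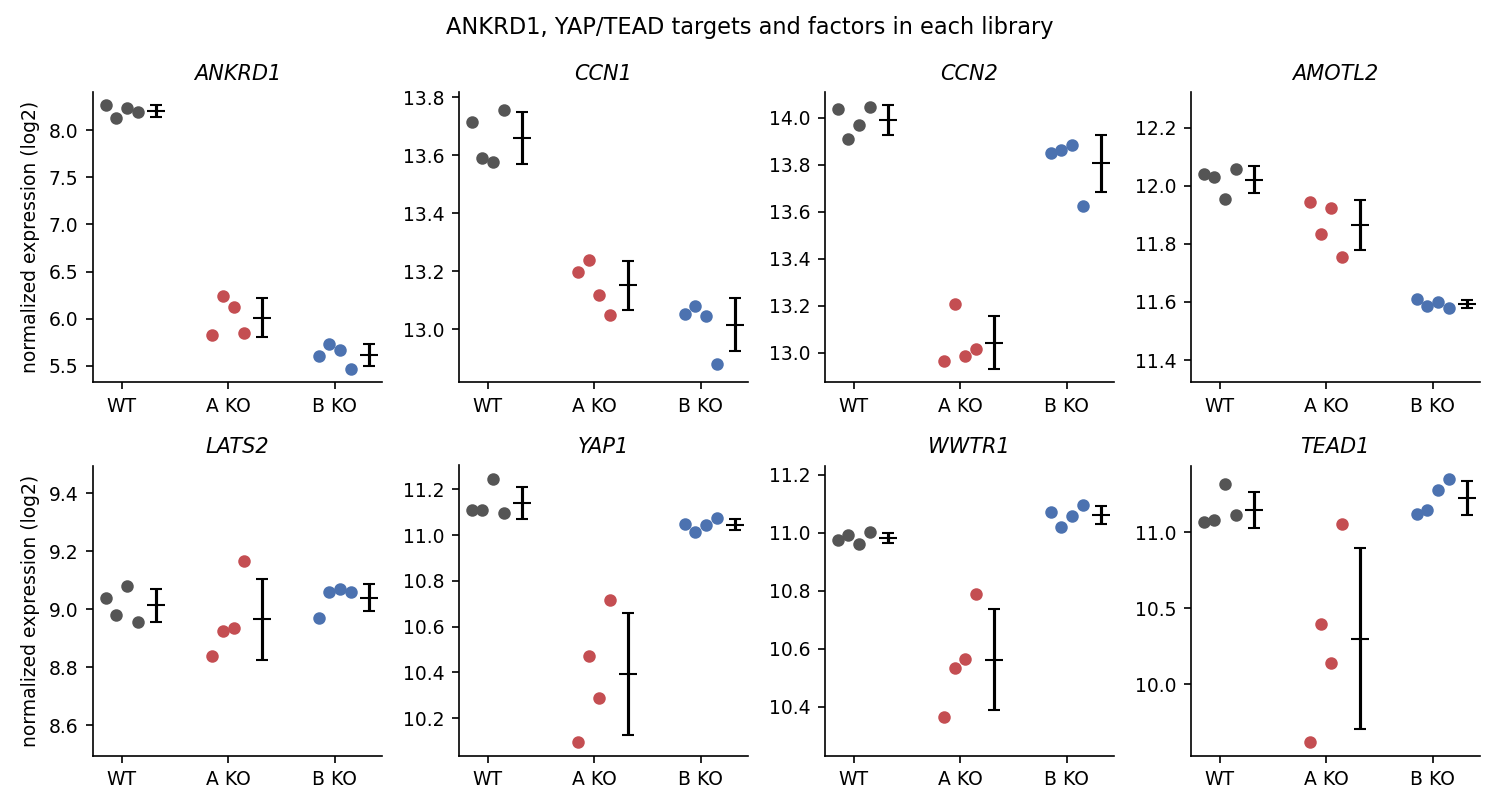
Normalized expression (log2) of the 8 genes in each library of wild type (WT), CTCF-A KO (A KO) and CTCF-B KO (B KO), as points, with the group mean and SD (n = 4) as bars, on axes that do not start at 0 and span at least 1 log2 unit. ANKRD1 lay between 8.12 and 8.26 in wild type and at or below 6.24 in every knockout library, and the CTCF-A KO libraries spread widely for TEAD1 and YAP1.

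The libraries differed in a way that bears on several members. In CTCF-A KO, genes with GC-rich exons stood higher than genes with AT-rich exons relative to wild type, by a gap between the top and bottom GC deciles of 0.96, 0.45, 0.66 and 0.06 log2 units in replicates 1 to 4, against -0.15 to 0.09 over the wild-type libraries, and -0.10 to 0.03 over those of CTCF-B KO. Replicate 4 of CTCF-A KO therefore stood apart from its group. The median absolute difference between 2 libraries of a group ran from 0.08 to 0.29 for CTCF-A KO, beside 0.05 to 0.08 for the wild type and 0.06 to 0.08 for CTCF-B KO. For this reason the CTCF-A KO differences of the members are also given after a smooth trend over exonic GC content and length was removed from every library. What part that pattern has in the results was not tested beyond those values. The depth of the libraries is unknown, because the table holds no counts. Of 12 astrocyte and glioma markers 9 were listed, GFAP among them, while S100B, AQP4 and ALDH1L1 were not, and their summed linear level was from 169000 to 192000 over the wild-type libraries, with 117000 to 132000 for CTCF-A KO and 109000 to 113000 for CTCF-B KO. None of 8 microglial and none of 7 oligodendrocyte markers was listed. Of 7 neuronal markers 4 were listed (MAP2, SYT1, SNAP25 and NEFL). Their summed linear level was 38900 to 42100 in wild type, with 54400 to 62300 for CTCF-A KO, against 13600 to 15300 for CTCF-B KO. The 3 groups did not overlap in that sum, but the sum does not describe the 4 genes as a class. Gene by gene, 1 was higher in CTCF-A KO than in wild type and 3 did not pass (median log2 difference 0.06). For CTCF-B KO 2 were higher and 2 lower, with a median of 0.08. Of 6 endothelial markers only KDR was listed, at 1200 to 1280 in wild type, with 501 to 632 for CTCF-A KO, against 674 to 732 for CTCF-B KO. Of 6 epithelial markers only KRT18 was listed, at 463 to 505, 369 to 451 and 359 to 388 in the same order. Of 8 fibroblast and pericyte markers COL1A1 and COL1A2 were listed, with sums of 31300 to 33700, 32800 to 37800 and 27600 to 29300. Taken singly, 1 of these 2 was lower in CTCF-A KO and 1 did not pass, with a median log2 difference of -0.46. Both were lower in CTCF-B KO. The part of these shifts in the results was not tested.

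Beside ANKRD1, 6 of the 7 other members were lower in CTCF-A KO than in wild type and none was higher, at a Benjamini-Hochberg adjusted p under 0.05 over all genes. That test called 62.9% of all genes in this comparison, 31.1% lower and 31.8% higher. In CTCF-B KO 3 of the 7 were lower, none was higher and 4 did not pass (no member was higher at an unadjusted p under 0.05 in either knockout), where 39.4% of all genes were called, 20.6% lower and 18.9% higher. The median log2 difference of the 7 was -0.51 in CTCF-A KO, against -0.10 in CTCF-B KO, beside 0.005 and 0.002 over all genes. After removal of a GC and length trend, described above, 5 of the 6 CTCF-A KO calls held and that of WWTR1 was lost, and with each library left out in turn 2 or 3 were called in CTCF-B KO. Both comparisons share the wild-type libraries.

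Among the secreted targets, CCN1 (chr1:85580761-85583962, GRCh38) fell in both knockouts. Its log2 level was 13.71, 13.59, 13.58 and 13.76 in wild type, 13.20, 13.24, 13.12 and 13.05 in CTCF-A KO, and 13.05, 13.08, 13.05 and 12.88 in CTCF-B KO. Every knockout library was below every wild-type library, and the knockouts overlapped each other. The difference from wild type was -0.51 in CTCF-A KO (SE 0.06, adjusted p = 1.17e-05), and -0.64 in CTCF-B KO (SE 0.06, adjusted p = 2.28e-06). After removal of the GC and length trend the 2 differences were -0.63 and -0.65. CCN1 was 0.14 log2 units higher in CTCF-A KO than in CTCF-B KO (95% interval 0.01 to 0.26), with an adjusted p of 0.056. That comparison passed under median centring of the libraries (adjusted p = 0.02), without CTCF-A KO replicate 4 (0.0113) and without CTCF-B KO replicate 2 (0.0495).

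CCN2 (chr6:131948176-131951373, minus strand), with 3 TEAD motifs in its promoter window, the most among the 6 members with a promoter read, was much lower in CTCF-A KO, while its level in CTCF-B KO lay close to wild type. It measured 14.04, 13.91, 13.97 and 14.05 in wild type, 12.96, 13.21, 12.98 and 13.01 in CTCF-A KO, and 13.85, 13.86, 13.89 and 13.63 in CTCF-B KO. The 3 groups did not overlap, but CTCF-B KO lay just under wild type. The CTCF-A KO difference was -0.95 (SE 0.07, adjusted p = 1.34e-07), a level 1.93-fold lower, and -1.10 with the trend removed. The CTCF-B KO difference was -0.18 (SE 0.07, adjusted p = 0.0409). That call was lost under quantile normalization (-0.05, adjusted p = 0.608), under median centring (adjusted p = 0.0672), with an untrended variance (adjusted p = 0.0566) and in 6 of the 12 fits that left out 1 library (wild-type replicate 1, 3 or 4, or CTCF-B KO replicate 1, 2 or 4), with differences from -0.21 to -0.12 over the 12. CTCF-B KO replicate 4 was the lowest of its group, and without it the difference was -0.12 (adjusted p = 0.124). The direct contrast of the knockouts was -0.76 (SE 0.07, adjusted p = 5.75e-07), so CCN2 was lower in CTCF-A KO than in CTCF-B KO by 1.7-fold.

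The 2 genes were also compared within each library, as the log2 level of CCN2 minus that of CCN1. This quantity was chosen after the values had been seen and is given with no test. It was 0.33 ± 0.04 (SD, n = 4) in wild type, -0.11 ± 0.10 in CTCF-A KO, beside 0.79 ± 0.04 in CTCF-B KO. No groups overlapped. Relative to wild type the difference was -0.44 in CTCF-A KO, against 0.46 in CTCF-B KO, and it was -0.90 between the knockouts. The exons of the 2 genes have similar GC content, 50.3% and 51.5%.

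**Figure D2:**
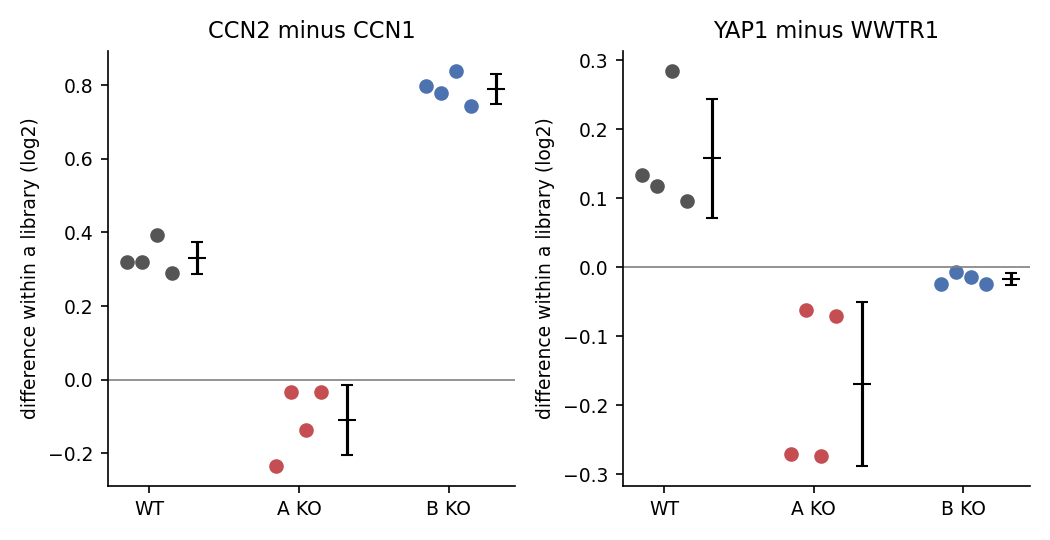
Difference of 2 log2 levels within each library (points; mean and SD as bars, n = 4), CCN2 minus CCN1 on the left and YAP1 minus WWTR1 on the right. CCN2 minus CCN1 was 0.33 in wild type on average, below 0 in every CTCF-A KO library and 0.79 in CTCF-B KO.

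The feedback targets differed from each other. AMOTL2 (chr3:134355874-134375479, minus strand) measured 12.04, 12.03, 11.95 and 12.06 in wild type, 11.95, 11.83, 11.92 and 11.76 in CTCF-A KO, and 11.61, 11.58, 11.60 and 11.58 in CTCF-B KO. CTCF-B KO was below both other groups with very little spread, and CTCF-A KO lay close under wild type. The difference was -0.43 in CTCF-B KO (SE 0.04, adjusted p = 8.21e-06) and -0.16 in CTCF-A KO (SE 0.04, adjusted p = 0.00847). The CTCF-A KO call was lost under median centring (-0.07, adjusted p = 0.304). AMOTL2 has the most GC-rich exons of the members (56.7%), and with the trend removed the CTCF-A KO difference was -0.31 (adjusted p = 1.26e-07) against -0.36 in CTCF-B KO. The contrast of the knockouts was 0.27 (adjusted p = 1.6e-04) before and 0.05 (adjusted p = 0.0708) after that removal.

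LATS2 (chr13:20973032-21061547, minus strand) passed in no comparison when the deposited values of all 12 libraries were fitted. Its log2 level was 9.04, 8.98, 9.08 and 8.95 in wild type, 8.84, 8.92, 8.94 and 9.17 in CTCF-A KO, and 8.97, 9.06, 9.07 and 9.06 in CTCF-B KO. All 3 groups overlapped. The difference from wild type was -0.05 in CTCF-A KO (95% interval -0.19 to 0.09, adjusted p = 0.539), and 0.03 in CTCF-B KO (95% interval -0.11 to 0.17, adjusted p = 0.776). CTCF-A KO replicate 4 was the highest LATS2 value of its group. With the trend removed the CTCF-A KO difference was -0.10 (adjusted p = 0.202). Without replicate 4 LATS2 was -0.11 relative to wild type, with an adjusted p of 0.0459. With the trend removed LATS2 was 0.19 log2 units lower in CTCF-A KO than in CTCF-B KO (adjusted p = 0.022).

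The co-activators and TEAD1 showed another pattern, with lower values in CTCF-A KO and levels near wild type in CTCF-B KO. YAP1 (chr11:102110461-102233423) measured 11.11, 11.11, 11.25 and 11.10 in wild type, 10.09, 10.47, 10.29 and 10.72 in CTCF-A KO, and 11.05, 11.02, 11.04 and 11.07 in CTCF-B KO. All CTCF-A KO libraries lay below both other groups. The CTCF-A KO difference was -0.75 (SE 0.10, adjusted p = 3.83e-05), and it was -0.48 (adjusted p = 4.15e-07) with the trend removed and -0.42, with no spread of its own, when replicate 4, the library with the smallest GC gap, alone stood for CTCF-A KO. In CTCF-B KO the difference was -0.10 (95% interval -0.31 to 0.12, adjusted p = 0.485). That interval, from the spread shared by all 3 groups, includes both no change and a fall of 0.31 on the log2 scale. With only the wild-type and CTCF-B KO libraries in the fit, YAP1 passed at the same difference (SE 0.03 rather than 0.10, adjusted p = 0.0303). Between the knockouts YAP1 was 1.57-fold lower in CTCF-A KO (log2 difference -0.65, adjusted p = 8.43e-05).

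WWTR1 (chr3:149517235-149736714, minus strand) measured 10.97, 10.99, 10.96 and 11.001 in wild type, 10.37, 10.53, 10.56 and 10.79 in CTCF-A KO, and 11.07, 11.02, 11.06 and 11.10 in CTCF-B KO. Every CTCF-A KO library was low and replicate 4 was nearest to wild type. The CTCF-A KO difference was -0.42 (SE 0.07, adjusted p = 1.93e-04). WWTR1 exons have the lowest GC content of the members (40.9%), and with the trend removed the difference was -0.07 (adjusted p = 0.136). With replicate 4 alone it was -0.19, a single library with no spread of its own. The CTCF-B KO difference was 0.08 (95% interval -0.07 to 0.23, adjusted p = 0.385), and it passed in a fit of only those 8 libraries (adjusted p = 0.0191). YAP1 minus WWTR1 within a library was 0.16 ± 0.09 (SD, n = 4) in wild type, -0.17 ± 0.12 in CTCF-A KO, beside -0.02 ± 0.01 in CTCF-B KO. This quantity too was chosen after the values had been seen and has no test.

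TEAD1 (chr11:12674591-12944483), the DNA-binding partner, had the widest spread. It measured 11.07, 11.08, 11.32 and 11.12 in wild type, 9.62, 10.39, 10.14 and 11.05 in CTCF-A KO, and 11.12, 11.15, 11.28 and 11.35 in CTCF-B KO. Replicates 1 to 3 of CTCF-A KO were far below wild type, and replicate 4 was 0.09 log2 units under the wild-type mean. The CTCF-A KO difference was -0.84 (SE 0.21, adjusted p = 0.00418), and -0.43 (SE 0.11, adjusted p = 0.00323) with the trend removed. When replicate 4 alone stood for CTCF-A KO, the TEAD1 difference was -0.09 (adjusted p = 0.452, with the spread of the other groups only). The GC and length trend took -0.74, -0.41, -0.50 and -0.02 log2 units of the TEAD1 value in the 4 CTCF-A KO libraries. In CTCF-B KO the difference was 0.08 (95% interval -0.38 to 0.54, adjusted p = 0.803).

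**Figure D3:**
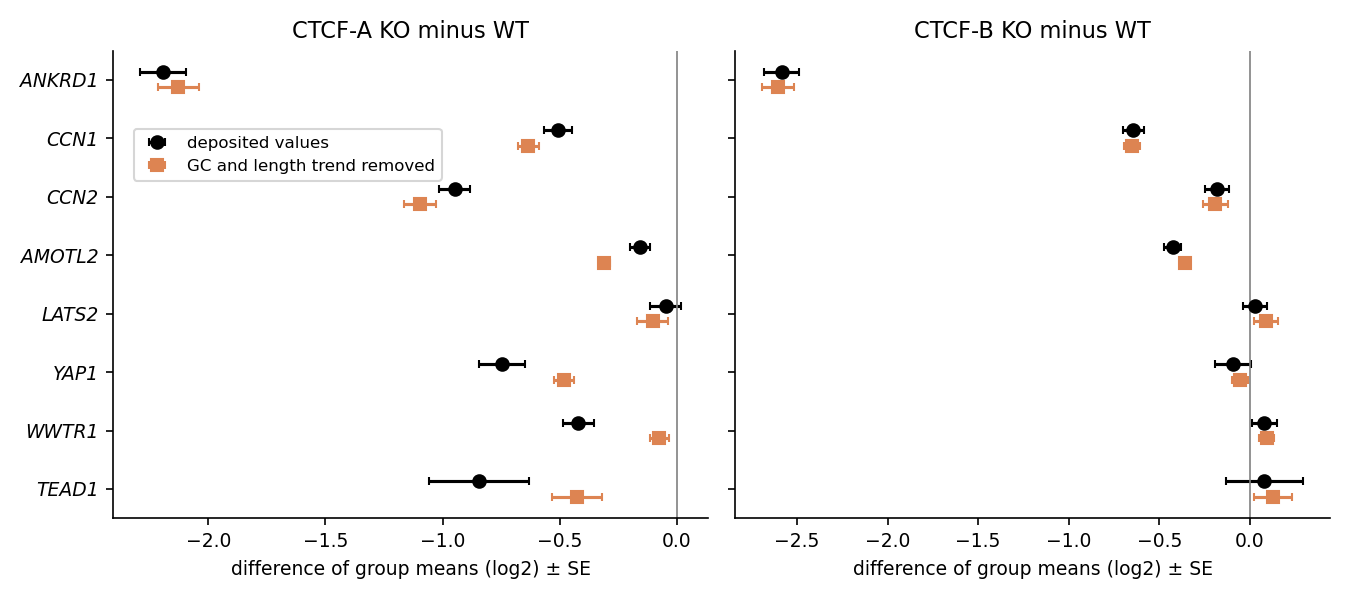
Difference of group means (log2, ± SE) from wild type for the 8 genes in CTCF-A KO (left) and CTCF-B KO (right), from the deposited values (circles) and after removal of the GC and length trend (squares); the horizontal scales differ. In CTCF-A KO the WWTR1 difference went from -0.42 to -0.07 and that of TEAD1 from -0.84 to -0.43, while ANKRD1 stayed at -2.19 and -2.13.

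Of the other TEAD and Vestigial-like factors, TEAD2, TEAD3, TEAD4 and VGLL4 were also measured. VGLL4, which competes with YAP for TEAD, rose in CTCF-A KO by 0.37 (SE 0.05, adjusted p = 1.88e-05) and was 0.25 higher with the trend removed. Its difference in CTCF-B KO was 0.11 (adjusted p = 0.0792). None of TEAD2, TEAD3 and TEAD4 passed against wild type, with differences of 0.01, 0.10 and -0.08 in CTCF-A KO and -0.15, -0.09 and 0.03 in CTCF-B KO. With the trend removed TEAD2 and TEAD4 passed in CTCF-A KO, at -0.19 (adjusted p = 0.00161) and -0.29 (adjusted p = 0.00354), so the sign of TEAD2 turned. In all, 3 of the 7 co-activator, TEAD and VGLL genes kept were lower in CTCF-A KO, and 1 was higher. Over all genes 62.9% were called there, 31.1% lower and 31.8% higher. In CTCF-B KO 0 of the 7 passed limma's test, where 39.4% of all genes were called. Only 1 of the 7, VGLL4, passed at an unadjusted p under 0.05. That count of 0 depends on the setting. With the trend removed VGLL4 was higher in CTCF-B KO (0.12, adjusted p = 0.00888) and TEAD2 lower (-0.17, adjusted p = 0.0042). Both also passed when CTCF-A KO replicate 4 was left out, and when it alone stood for its group, where YAP1 passed as lower and WWTR1 as higher too. Among these factors the order of level per kilobase of exon in wild type was YAP1 (8.49 log2 units), TEAD2 (8.27), WWTR1 (7.91), TEAD1 (7.78), VGLL4 (7.51), TEAD3 (6.64) and TEAD4 (6.41). The neighbours WWTR1 and TEAD1 overlapped between libraries in that order. The length used is the sum of all annotated exons, and the order can differ under another length. For WWTR1 that sum is 8413 bases, against 5030 in its longest transcript, and for TEAD1 it is 10279 against 8477. On the same per-length scale CCN2 (12.76) and CCN1 (12.36) stood highest of the members in wild type and did not overlap, followed by AMOTL2 (9.44), while ANKRD1 (7.22) and LATS2 (6.53) stood lowest.

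A wider list of 22 core YAP/TAZ/TEAD targets held 19 kept genes other than ANKRD1. In CTCF-A KO 11 of the 19 were lower, 3 were higher and 5 did not pass, with a median difference of -0.16, beside 31.1% lower and 31.8% higher over all genes. In CTCF-B KO 11 were lower, 4 were higher and 4 did not pass, with a median of -0.18, beside 20.6% lower and 18.9% higher over all genes. Leaving out the members too, 8 of 15 were lower and 3 higher in CTCF-A KO, and 8 lower and 4 higher in CTCF-B KO. In the 12 fits that each left out a library, 10 to 12 of the 19 were lower in each knockout. The CTCF-A KO median of the 19 was -0.195 with the trend removed, and -0.13 when replicate 4 alone stood for that group. For the 15 outside the members it was -0.16 as deposited, -0.08 with the trend removed and 0.008 with replicate 4 alone. With the trend removed 7 of the 15 were lower and 5 higher in CTCF-A KO, beside 30.0% lower and 31.5% higher over all genes.

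The core targets did not share a direction. GADD45A, a stress-induced growth arrest gene, rose in both knockouts, by 0.67 in CTCF-A KO (SE 0.05, adjusted p = 1.14e-07), and 0.64 in CTCF-B KO (SE 0.05, adjusted p = 2.23e-07). IGFBP3, a secreted binding protein of insulin-like growth factors, rose by 1.01 (adjusted p = 3.13e-06) and 0.84 (adjusted p = 2.65e-05). NT5E (CD73), which makes adenosine at the cell surface, rose in CTCF-B KO by 1.51 (SE 0.09, adjusted p = 2.73e-08) and did not pass in CTCF-A KO (-0.15, adjusted p = 0.153), although it did without CTCF-A KO replicate 4 (-0.21). NT5E measured 9.25, 9.36, 9.56 and 9.43 in wild type, 9.09, 9.37, 9.10 and 9.45 in CTCF-A KO, and 10.89, 10.96, 10.95 and 10.84 in CTCF-B KO. Only the CTCF-B KO libraries stood apart for that gene. CCDC80, a secreted matrix protein, was higher in CTCF-B KO by 0.75 (adjusted p = 3.66e-07). In CTCF-A KO it measured -0.06 from wild type as deposited (adjusted p = 0.367) and 0.35 with the trend removed (adjusted p = 0.00256).

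NUAK2, a kinase of the AMPK family, fell by 0.92 on the log2 scale in CTCF-B KO (SE 0.06, adjusted p = 8.81e-08) and by 0.16 in CTCF-A KO (adjusted p = 0.0329). The CTCF-A KO call was lost in 6 of the 12 fits that left out 1 library (wild-type replicate 1, 2 or 4, or CTCF-A KO replicate 2, 3 or 4), with differences from -0.21 to -0.12. The knockouts differed by 0.76 (adjusted p = 2.36e-07). FOXF2, a forkhead transcription factor, was called in opposite directions, at 0.57 in CTCF-A KO (adjusted p = 7.1e-05), and -0.61 in CTCF-B KO (adjusted p = 7.7e-05). FOXF2 differed between the knockouts by 1.18 (SE 0.08, adjusted p = 8.15e-08). FJX1, the homologue of the fly Golgi kinase four-jointed, fell by 0.49 in CTCF-A KO (adjusted p = 4.17e-06) and measured -0.10 in CTCF-B KO (adjusted p = 0.153).

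**Figure D4:**
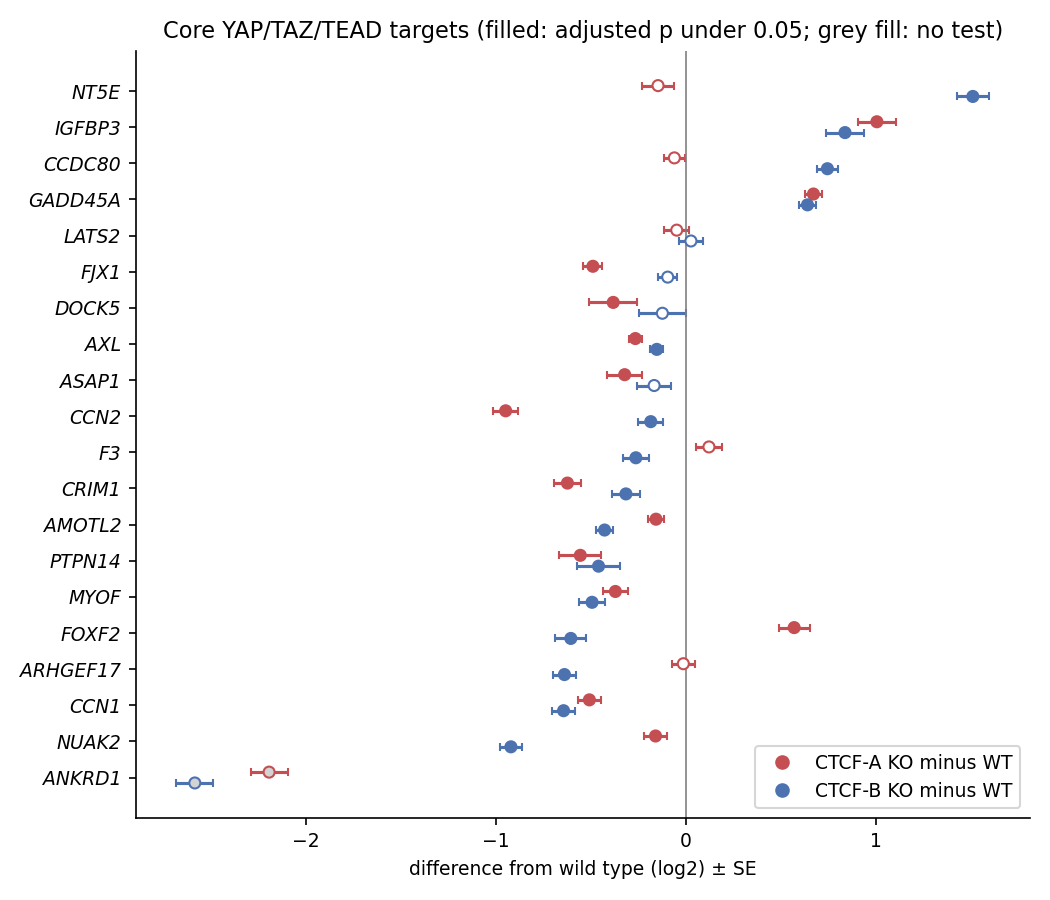
Difference from wild type (log2, ± SE) of the 20 core YAP/TAZ/TEAD targets kept, in CTCF-A KO (red) and CTCF-B KO (blue); filled points had an adjusted p under 0.05, open points did not, and ANKRD1, in grey fill, was not tested. ANKRD1 lies far below the others, and IGFBP3, GADD45A, NT5E and CCDC80 lie at 0.64 or more in CTCF-B KO.

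The pathway above YAP and TAZ was described by 16 kept genes of the Hippo kinase cassette and 26 upstream regulators. In CTCF-A KO 10 of the 16 kinase cassette genes were lower and 2 higher, with a median of -0.32, beside 31.1% lower and 31.8% higher over all genes. Once the GC and length trend was removed, 5 were lower and 5 higher, with a median of -0.06, beside 30.0% lower and 31.5% higher (61.5% called) over all genes under that setting. When replicate 4 alone stood for CTCF-A KO, the median of the 16 was 0.04, beside -0.0007 over all genes. In CTCF-B KO 4 were lower and 4 higher, where 39.4% of all genes were called. MAP4K4, a kinase that activates LATS1 and LATS2, fell in both knockouts, by 0.55 (adjusted p = 2.92e-06) and 0.23 (adjusted p = 0.0049). TAOK2, another activating kinase, rose in both, by 0.40 (adjusted p = 1.06e-04) and 0.19 (adjusted p = 0.0249). The TAOK2 call in CTCF-B KO was lost without wild-type replicate 3, wild-type replicate 4 or CTCF-B KO replicate 4, and the difference ran from 0.17 to 0.21 over the 12 fits that left out 1 library.

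Of the 26 upstream regulators 14 were lower and 7 higher in CTCF-A KO, and 8 lower and 3 higher in CTCF-B KO. Over all genes 62.9% were called in CTCF-A KO (31.1% lower and 31.8% higher). In CTCF-B KO 39.4% of all genes were called (20.6% lower and 18.9% higher), and the 11 of 26 regulators called there are near that share. AMOT (chromosome X), the founding angiomotin and a relative of AMOTL2, measured 11.59, 11.58, 11.50 and 11.48 in wild type, 9.87, 9.92, 10.02 and 10.13 in CTCF-A KO, and 10.01, 9.83, 9.96 and 9.93 in CTCF-B KO. Both knockouts were well below wild type and overlapped each other. AMOT fell by 1.55 in CTCF-A KO (SE 0.06, adjusted p = 1.35e-09), and by 1.60 in CTCF-B KO (SE 0.06, adjusted p = 5.37e-10). The third family member, AMOTL1, fell by 0.52 in CTCF-A KO (adjusted p = 3.63e-05) and rose by 0.31 in CTCF-B KO (adjusted p = 0.00267). NF2 (merlin), which recruits LATS kinases to the membrane, fell by 0.19 in CTCF-A KO (adjusted p = 5.24e-04), and by 0.59 in CTCF-B KO (adjusted p = 4.08e-08). AJUBA, a LIM protein that restrains LATS kinases, fell by 0.27 (adjusted p = 5.17e-04) and 0.91 (adjusted p = 1.79e-08).

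ANKRD1, CCN1 and CCN2 are also known to respond to SRF and its actin-sensing co-factors, the MRTFs, so 26 kept cytoskeletal genes of that program were set beside them. In CTCF-A KO 15 were higher and 5 lower, with a median of 0.23, where 31.8% of all genes were higher and 31.1% lower. In CTCF-B KO 1 was higher and 17 were lower, with a median of -0.32, where 18.9% of all genes were higher and 20.6% lower. Between the knockouts 20 of the 26 were higher in CTCF-A KO, and 3 lower, with a median of 0.43, where 33.4% of all genes were higher and 32.6% lower. TPM1 (tropomyosin 1) measured 11.61, 11.56, 11.52 and 11.59 in wild type, 12.06, 12.17, 12.14 and 12.08 in CTCF-A KO, and 10.83, 10.84, 10.80 and 10.77 in CTCF-B KO. The knockouts stood apart from wild type, on opposite sides of it. The TPM1 differences were 0.54 (adjusted p = 1.65e-07) and -0.76 (adjusted p = 9.88e-09). FLNA (filamin A), which crosslinks actin, and MYH9, a non-muscle myosin heavy chain, took the same directions, with 0.51 and -0.73 for FLNA and 0.44 and -0.56 for MYH9. The 5 genes lower in CTCF-A KO were FILIP1L, MRTFB, LIMA1, VCL and CNN3, and 3 of them were lower in both knockouts. FILIP1L measured -1.53 in CTCF-A KO (adjusted p = 4.73e-07), and -0.95 in CTCF-B KO (adjusted p = 5.19e-05). VCL (vinculin) measured -0.19 (adjusted p = 7.6e-04) and -0.61 (adjusted p = 5.96e-08), but 0.08 in CTCF-A KO with the trend removed (adjusted p = 0.145). CNN3 (calponin 3) measured -0.18 (adjusted p = 3.7e-04) and -0.54 (adjusted p = 4.27e-08). The signs of the list's medians held under quantile normalization, median centring and trend removal. The CArG box of SRF (CCWWWWWWGG, W being A or T) was searched in the same 250-base promoter windows. It was found in 0 of the 8 members' promoters, which do not include CCN1, and in 0 of 18 core target promoters. Of the promoters of the SRF/MRTF list 13 of 65 (20.0%) held it, against 1.16% of all promoters. Sites outside these windows were not searched.

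**Figure D5:**
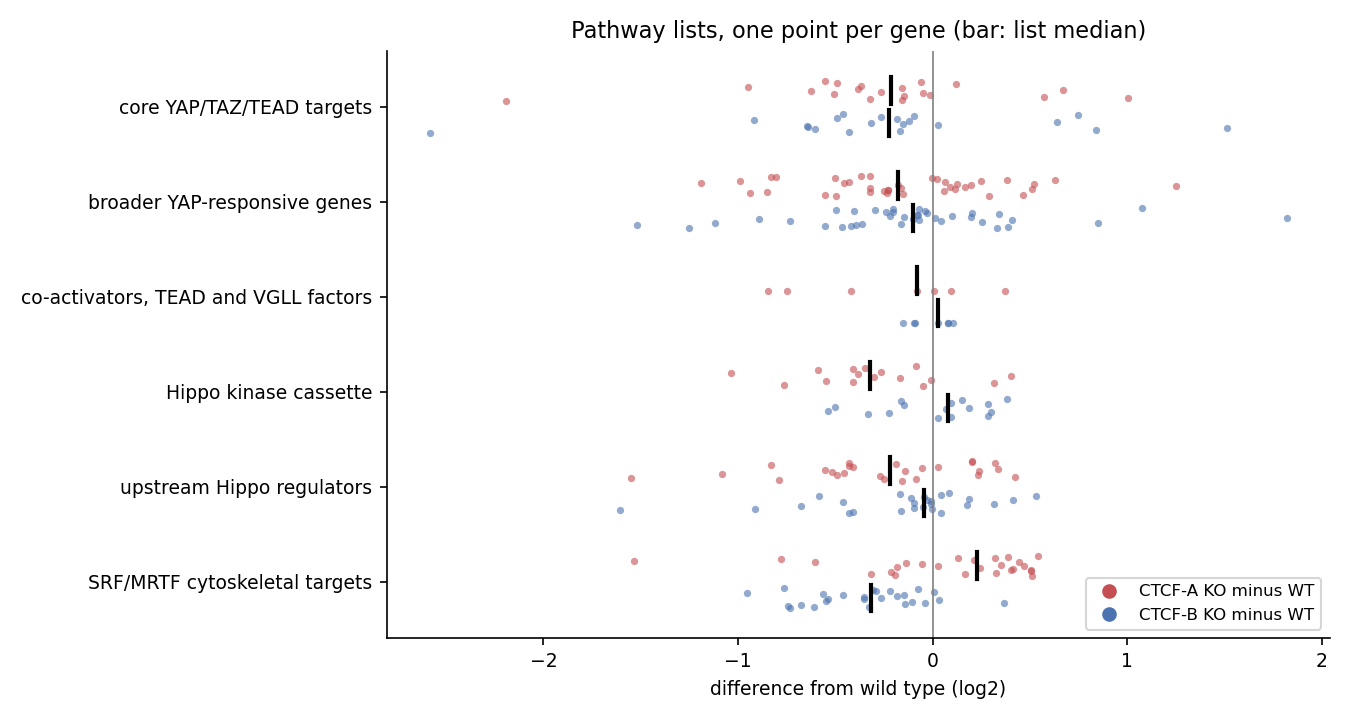
Difference from wild type (log2) of each kept gene of 6 lists of the pathway, 1 point per gene, in CTCF-A KO (red) and CTCF-B KO (blue), with the list median as a bar; points are spread vertically for legibility. The medians of the SRF/MRTF list lay at 0.23 in CTCF-A KO, against -0.32 in CTCF-B KO, and those of the core target list lay below 0 in both.

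The genes whose deviations from wild type over the 12 libraries were nearest to those of ANKRD1, by root mean square difference, were CD24 (0.401 log2 units), NPY1R (0.43), SCD (0.435), NTN1 (0.446), CADM1 (0.47), S100A2 (0.476), SCUBE3 (0.482) and FADS2 (0.551). CD24 has near-identical copies, so its value is uncertain. None of the 8 was on a list of YAP/TAZ/TEAD targets used here. The nearest other member was CCN1 at 1.49, with 238 genes at a smaller distance, a count that includes ANKRD1 itself. CCN2 stood at 1.56, with 364 genes counted in the same way, and LATS2 was the farthest at 1.96. The measure weighs the size of a change, and no other member differed from wild type by as much as ANKRD1.

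Around ANKRD1 on chromosome 10, the 40 other kept genes within 5 Mb on either side differed from wild type by a median of -0.37 in CTCF-A KO, -0.24 with the trend removed, and -0.11 in CTCF-B KO. None of the 40 was as low as ANKRD1 in either knockout, which the choice of ANKRD1 by its fall made likely in advance. The 8 genes around YAP1 on chromosome 11 gave a median of -0.48 in CTCF-A KO (-0.36 with the trend removed), and 1 of them was lower than YAP1. In CTCF-B KO their median was -0.07. The same windows around the other members gave CTCF-A KO medians from -0.28 (CCN2) to -0.05 (CCN1), beside 0.005 over all genes. With the trend removed those medians ran from -0.09 (LATS2) to 0.16 (CCN1). In CTCF-B KO they ran from 0.01 (CCN1) to 0.18 (WWTR1). Whether gene copy number differed between the clones was not measured.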

How the data were processed

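Total RNA of 12 cell line samples was made into NEBNext Ultra libraries and sequenced as read pairs, per the labels' protocols. Trimmomatic 0.33, featureCounts, DESeq2 and the build GRCh38.p7 are named in the submitters' processing notes; the aligner, annotation, strand setting and gene filter are not given in the sources used here. The authors deposited normalized log2 values for 11178 genes, as the values show (1.34 to 17.97), and the transformation is not recorded. Without a stated strand setting, reads of overlapping antisense genes cannot be told apart. Depth is unknown, so no counting interval is given. A level per kilobase subtracts the log2 of the summed exon length in GENCODE 29 (GRCh38), which also gave positions.

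The plan of log2(value + 1) for linear values was not needed. A gene was kept when its linear value was at least 10 in at least 4 of 12 libraries (11128 kept, 50 removed). The 3 group means were estimated together with limma 3.58.1 (R 4.3.3) (trended empirical Bayes, two-sided, Benjamini-Hochberg over all kept genes, threshold 0.05). The fit was also run on simulated data with independent noise and the same spread per gene in every group. That simulation did not include the wider spread or the GC pattern of the CTCF-A KO libraries. The GC and length trend was a spline fit per library (5 and 4 degrees of freedom) over the 99.71% of genes with both properties. Alternatives were other filters, scalings, pseudocount, variance, sample sets, the replicate number as a block and each library left out.

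Members and lists were chosen with earlier results of these data known. Named genes were the members, up to 4 genes with the smallest adjusted p per list and comparison, all TEAD, VGLL, CCN and ANKRD1-family genes kept, and the 8 genes most like ANKRD1. RefSeq promoters (GRCh38.p14) were searched for motifs on both strands.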

Additional observations from a re-analysis of the deposited data

Results flagged for a closer look

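Of 141 combinations of a named gene and a group, 6 held a library far from its 3 group mates by Dixon's criterion, which chance alone flags in about 1 of 20 groups. CCN2 in CTCF-B KO replicate 4 was 13.63 against 13.85 to 13.89 in the others, and LATS2 in CTCF-B KO replicate 1 was 8.972 against 9.06 to 9.07. YAP1 in WT replicate 3 was 11.25 against 11.10 to 11.11. In CTCF-A KO replicate 4, GADD45A was 10.23 against 10.32 to 10.33 and IGFBP3 was 7.129 against 7.49 to 7.52, in the library that also lacked the GC gap of its group. TAOK2 in CTCF-B KO replicate 4 was 11.01 against 10.95 to 10.96.

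For 9 genes the 2 knockouts were called in opposite directions from wild type and differed from each other in limma's direct contrast, CTCF-A KO minus CTCF-B KO. Higher in CTCF-A KO were TPM1 by 1.30, FLNA by 1.25, FOXF2 by 1.18, DUT by 1.06, MYH9 by 1.01, ACTG1 by 0.96 and ITGB5 by 0.868. The ETV5 difference was -1.40 and that of AMOTL1 was -0.828. The opposite direction of DUT rested on a CTCF-A KO difference of 0.16, which was -0.02 when replicate 4 alone stood for that group. That call was lost in 5 of the 12 fits that left out 1 library (wild-type replicate 2 or 4, or CTCF-A KO replicate 1, 2 or 3), with differences from 0.13 to 0.23. The comparisons with wild type share the wild-type libraries.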

How the results depend on the processing

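The counts moved most with the choice of CTCF-A KO libraries. When replicate 4 alone stood for CTCF-A KO, 4654 genes were called in CTCF-A KO against 7002 in the full fit. In CTCF-B KO 4389 genes were called, and 6604 in that fit, or 6601 with only the 8 libraries compared; of the 7 members other than ANKRD1, 5 rather than 3 were then called in CTCF-B KO. In that replicate 4 fit 9 core targets rather than 5 were higher in CTCF-A KO than in CTCF-B KO. Core targets higher in CTCF-A KO than in wild type were 5 rather than 3 with the GC and length trend removed, with or without the replicate block. Core targets lower in CTCF-A KO than in CTCF-B KO ranged from 6 to 10 with a library left out, 10 without CTCF-A KO replicate 4. Under median centring the share of CTCF-A KO calls that were higher went from 50.6% to 61.7%.

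Some named genes changed sign. With the trend removed, with or without the block, values against wild type became -0.187 for TEAD2, 0.347 for CCDC80, 0.0149 for THBS1, 0.146 for SAV1 and 0.0788 for VCL in CTCF-A KO, and 0.122 for CSNK1D in CTCF-B KO. The contrast of the knockouts became -0.00757 for TEAD3, -0.123 for GADD45A, -0.10 for TAOK2 and -0.277 for MINK1. With replicate 4 alone TEAD2 became -0.215 and DUT -0.0194 in CTCF-A KO, and WWC2 0.0422 between the knockouts. The cause was not tested.

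Replicate numbers did not pair the libraries: of 12 same-numbered pairs 5 had a correlation over 0.1 (range -0.32 to 0.43), and the own number correlated best in 8 of 24 cases. With the number as a replicate block the CCN2 call in CTCF-B KO had an adjusted p of 0.0561. With 16 added to linear values before the logarithm, ANKRD1 measured -1.95 in CTCF-A KO, against -2.25 in CTCF-B KO.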

Other observations

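Among 39 kept genes of a broader list reported to respond to YAP, 19 were lower and 10 higher in CTCF-A KO, and 17 were lower and 11 higher in CTCF-B KO. Over all genes 31.1% were lower and 31.8% higher in the first comparison, and 20.6% lower and 18.9% higher in the second. PMP22, a myelin and membrane protein, fell by 0.50 in CTCF-A KO (adjusted p = 1.67e-06), and by 1.25 in CTCF-B KO (adjusted p = 4.79e-10). THBS1 (thrombospondin 1), a secreted matrix glycoprotein, fell by 1.12 in CTCF-B KO (adjusted p = 4.84e-09) and by 0.23 in CTCF-A KO (adjusted p = 0.00229), where it measured 0.01 with the GC and length trend removed. ETV5, an ETS factor induced by growth factor signalling, was called in opposite directions, at -0.32 in CTCF-A KO, against 1.08 in CTCF-B KO (limma, adjusted p = 7.48e-05 and 2.54e-09). SHCBP1, a gene of dividing cells, fell by 0.99 in CTCF-A KO (adjusted p = 1.43e-06) and measured -0.03 in CTCF-B KO (adjusted p = 0.841).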
